A study of Mus musculus with 9 samples.

Results

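Leukemic bone marrow of ERG transgenic mice was compared with the whole bone marrow of wild type mice, the tissue in which the leukemia arose. The arrays were chosen by their titles: the 3 marked as transgenic and the 3 wild type arrays that were not lineage-depleted, 6 of the 9 arrays of the series. RNA was measured on Affymetrix arrays, and a level is the log2 of the deposited intensity of a gene's probe set, a group of probes that read 1 transcript. The remaining 3 arrays held wild type marrow depleted of cells with mature blood cell markers, each a pool of 3 mice. They enter here only through the spread that all 3 groups share in the fit and as a second reference for named genes.

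The leukemias came from 3 mice that carried an ERG transgene and were killed once they showed signs of leukemia, which the submitters call myeloid. The whole marrow came from 3 wild type mice with no transgene. The labels give C57BL6 as the strain of every sample and the femur as the source of the marrow, and all 6 samples were used without any cell selection. The transgene's promoter and species, the cells that express it, and the age and sex of the mice are missing from the labels used here. The title of leukemia 1 is that of leukemia 2 with 1 more digit at its end, and their arrays differ from each other more than either of the other pairs (r = 0.973, 0.978 and 0.987 over all probe sets).

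ERG belongs to the ETS transcription factors, which bind DNA at a core written GGAA. It is needed in blood stem cells and in megakaryocytes, the cells that shed platelets, and it works beside GATA factors there. Whole marrow is mostly maturing neutrophils, with red cell precursors, B cell precursors, monocytes and few stem and progenitor cells. In bulk marrow, fewer cells of a type and less RNA per cell cannot be told apart, so every difference below is one of RNA in the whole tissue.

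Of 14 marker genes of marrow cells, 10 had a probe set of their own, and all 10 read above the median intensity of all probe sets (33.4, a log2 level of 5.06) on each of the 6 arrays. Of 3 markers of fat, muscle and bone, 2 had a probe set of their own. The fat marker Adipoq lay between 4.13 and 4.75, below that median, and the other lay above it on all 6 arrays (up to 5.88). Median intensity per array ran from 32.3 to 34.4. Whole marrow array 2 was the only 1 of the 6 with signal of the Y-linked gene Eif2s3y (8.53, against 3.98 to 4.18) and without signal of Xist (4.32, against 10.59 to 11.11). It was also the lowest of the 3 whole marrow arrays in many B cell and red cell genes given below, and the part of this array in the results was not tested beyond leaving it out.

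Erg itself was lower in the leukemias. Its level was 7.25, 7.60 and 7.01 in whole marrow arrays 1, 2 and 3 and 6.60, 6.19 and 6.32 in leukemias 1, 2 and 3. The groups did not overlap, and the difference was -0.91 ± 0.18 (log2, standard error; limma adjusted p = 0.00739). Since the species of the transgene is not stated, this probe set checks neither the transgene nor the labels.

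By limma at an adjusted p under 0.05, 2901 of 19938 genes were higher in the leukemias (14.6%) and 1980 were lower (9.93%). Of these calls, 1754 higher and 1055 lower ones (8.8% and 5.29% of all genes) held under all 16 alternatives of scaling, filter, model and left-out array. The larger part of the calls was of modest size, with a median log2 difference of 0.65 among genes that rose and -0.85 among genes that fell. Only 91 genes rose by at least 2 log2 units and 114 fell by as much (0.456% and 0.572% of genes). In 159 genes that rose, every whole marrow array lay below the median intensity and every leukemia above it, and 156 genes that fell showed the reverse. The split of the calls depended on scaling: rises made up 59.4% with the values as deposited, 47.7% with a shared 75th percentile for all arrays (2215 rises and 2431 falls) and 47.2% after cyclic loess (2174 and 2429). Without whole marrow array 1, 1248 genes fell. The median difference of all genes was -0.02 with the deposited values and -0.105 with the 75th percentile. Bright genes, with a group mean above the median intensity, were called more often than all genes. With only these 10699 genes fitted, 2965 rose and 1965 fell. The shares of all genes given beside the lists below are thus a low yardstick for lists of mostly bright genes.

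**Figure D1:**
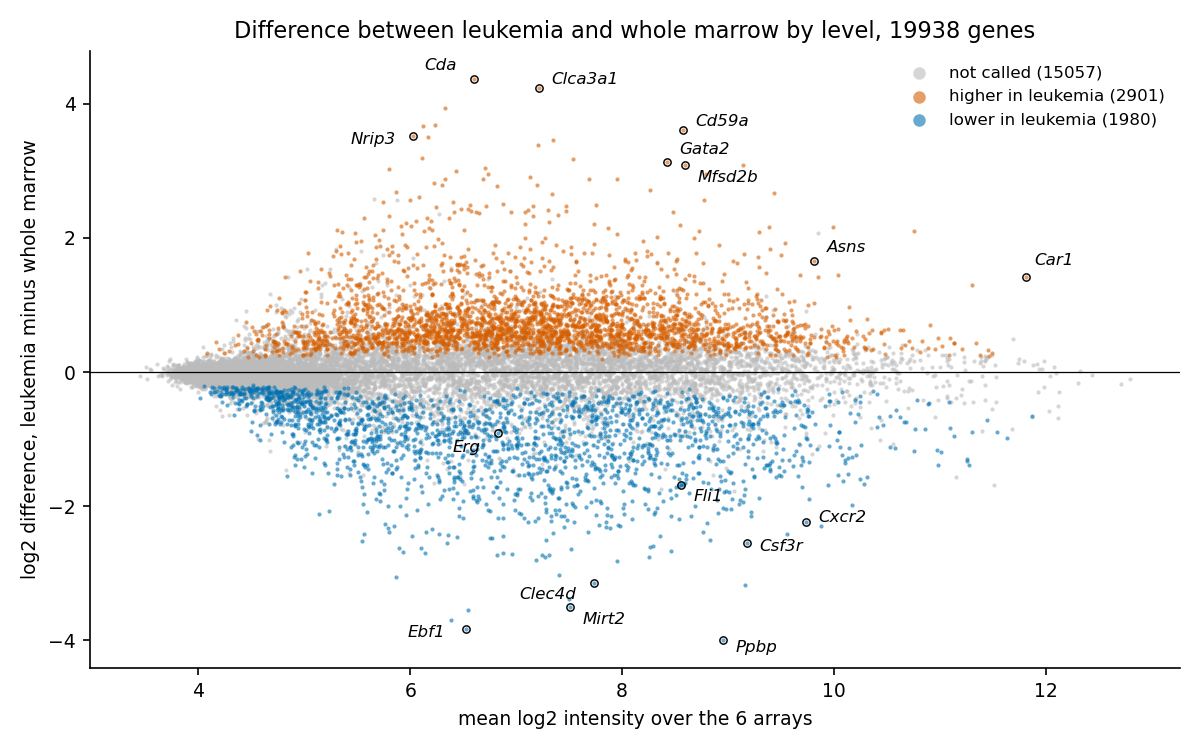
Each point is 1 of 19938 genes, placed by its mean log2 intensity over the 6 arrays (horizontal) and by its log2 difference, leukemia minus whole marrow (vertical); orange points were called higher and blue points lower by limma, and labelled genes are circled. Rises above 3 log2 units (17 genes) and falls beyond 3 (10 genes) are few, and Car1, a bright gene, rose by 1.41.

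Promoter sequence is shown here for 4 genes that rose and hold a DNA word of ETS or GATA factors. The first pair stand for lists of genes whose promoters often hold the ETS word. By size of rise, the rule for named genes picked 14 genes with a promoter window, and only the second pair hold the GATA word. That word stood in 6.97% of the windows of genes that rose and 6.83% of those of genes that fell. Each window runs from 250 bases before to 50 bases after a transcription start annotated by RefSeq on GRCm38.p6, printed 5′ to 3′ on the strand of the gene. Capitals mark CCGGAA, the ETS word, or AGATAA, the GATA word, or the reverse complement of either, TTCCGG or TTATCT. The first pair make proteins of mitochondrial translation: Mrpl52 encodes a subunit of the mitochondrial ribosome and Iars2 the mitochondrial isoleucyl-tRNA synthetase. Gp5 encodes a subunit of the platelet receptor for von Willebrand factor, and Ces2g a carboxylesterase.
Mrpl52, chr14:54426659-54426958, + strand: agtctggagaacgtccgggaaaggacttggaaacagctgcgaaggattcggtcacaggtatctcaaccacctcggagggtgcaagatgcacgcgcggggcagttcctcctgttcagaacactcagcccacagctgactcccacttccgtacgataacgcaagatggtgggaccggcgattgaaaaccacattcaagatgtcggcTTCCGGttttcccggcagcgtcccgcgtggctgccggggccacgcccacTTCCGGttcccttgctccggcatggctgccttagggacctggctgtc
Iars2, chr1:185329352-185329651, - strand: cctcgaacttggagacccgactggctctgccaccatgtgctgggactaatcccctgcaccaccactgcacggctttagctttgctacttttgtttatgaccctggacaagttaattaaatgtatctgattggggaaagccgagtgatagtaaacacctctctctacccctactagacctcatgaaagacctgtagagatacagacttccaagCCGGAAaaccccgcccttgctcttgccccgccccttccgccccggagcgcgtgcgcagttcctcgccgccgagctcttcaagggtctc
Gp5, chr16:30310732-30311031, - strand: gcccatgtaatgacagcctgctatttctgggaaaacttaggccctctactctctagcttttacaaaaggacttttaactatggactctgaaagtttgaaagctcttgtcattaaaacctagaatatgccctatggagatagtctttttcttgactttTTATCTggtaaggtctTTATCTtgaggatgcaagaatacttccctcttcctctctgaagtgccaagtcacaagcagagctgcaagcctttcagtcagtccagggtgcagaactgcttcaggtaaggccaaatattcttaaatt
Ces2g, chr8:104961468-104961767, + strand: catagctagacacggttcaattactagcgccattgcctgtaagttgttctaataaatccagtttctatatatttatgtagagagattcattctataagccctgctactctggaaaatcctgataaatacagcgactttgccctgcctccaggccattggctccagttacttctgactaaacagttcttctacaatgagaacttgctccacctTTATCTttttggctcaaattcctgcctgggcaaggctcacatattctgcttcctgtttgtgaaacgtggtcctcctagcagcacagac
A word is a match of letters only and shows no binding.

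The genes that rose most with a mean above the median intensity in both groups included surface, transport and regulatory genes. Single arrays could lie below that median, as in Clca3a1 and in Samd14 (5.04 and 4.87 on whole marrow arrays 1 and 2). Clca3a1, of a family that regulates chloride channels, read 5.12, 5.32 and 4.87 in whole marrow and 9.46, 9.46 and 9.08 in the leukemias, a difference of 4.23 ± 0.31 (limma adjusted p = 0.000398). Groups of arrays failed to overlap in 37.1% of all genes (19.4% with the leukemias higher and 17.7% with them lower). Here every leukemia lay more than 3 log2 units above every whole marrow array. Mfsd2b, the exporter of sphingosine 1-phosphate in red cells and platelets, read 7.06, 6.72 and 7.37 in whole marrow and 10.02, 10.51 and 9.87 in the leukemias (3.08 ± 0.20, adjusted p = 0.000292). Its arrays were also far apart and close within each group. Gp5 rose from 5.16, 5.36 and 5.24 to 7.86, 8.94 and 7.82 (2.95 ± 0.28, adjusted p = 0.000553), with leukemia 2 the highest. Slamf1, the surface receptor CD150 that marks blood stem cells, rose 9.02-fold, and leukemia 2 was again the highest at 9.93 against 8.66 and 8.78. The others that the rule for named genes picked, with folds between 7.38 and 12.2, were Cd59a (an inhibitor of complement), Tspo2 (a cholesterol-binding protein of red cell precursors), Ndrg2, Gata2, Ces2g, Samd14, Nckap1 (a subunit of the WAVE complex that builds actin) and Slc6a20a (a proline transporter).

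Other genes went from below the median intensity to clear signal, so their folds are lower bounds. Nrip3 read 4.26, 4.30 and 4.25 in whole marrow and 7.70, 8.28 and 7.39 in the leukemias, at least 11.5-fold higher (3.52 ± 0.20, limma adjusted p = 0.000221). Its level in lineage-negative marrow was 4.22, 4.58 and 4.59, so the leukemias stood above all 6 wild type arrays. P3h2, a collagen prolyl hydroxylase, read 4.40, 4.42 and 4.41 in whole marrow and 6.99, 9.19 and 7.58 in the leukemias (at least 11.4-fold, adjusted p = 0.00146), again with leukemia 2 the highest. Cda, which deaminates cytidine, was at least 20.7-fold higher, with levels of 7.88, 9.83 and 8.66 in the leukemias against 4.34, 4.54 and 4.37. Tjp1, Plek2 and Bex4 rose at least 15.3-fold, 12.8-fold and 12.7-fold.

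**Figure D2:**
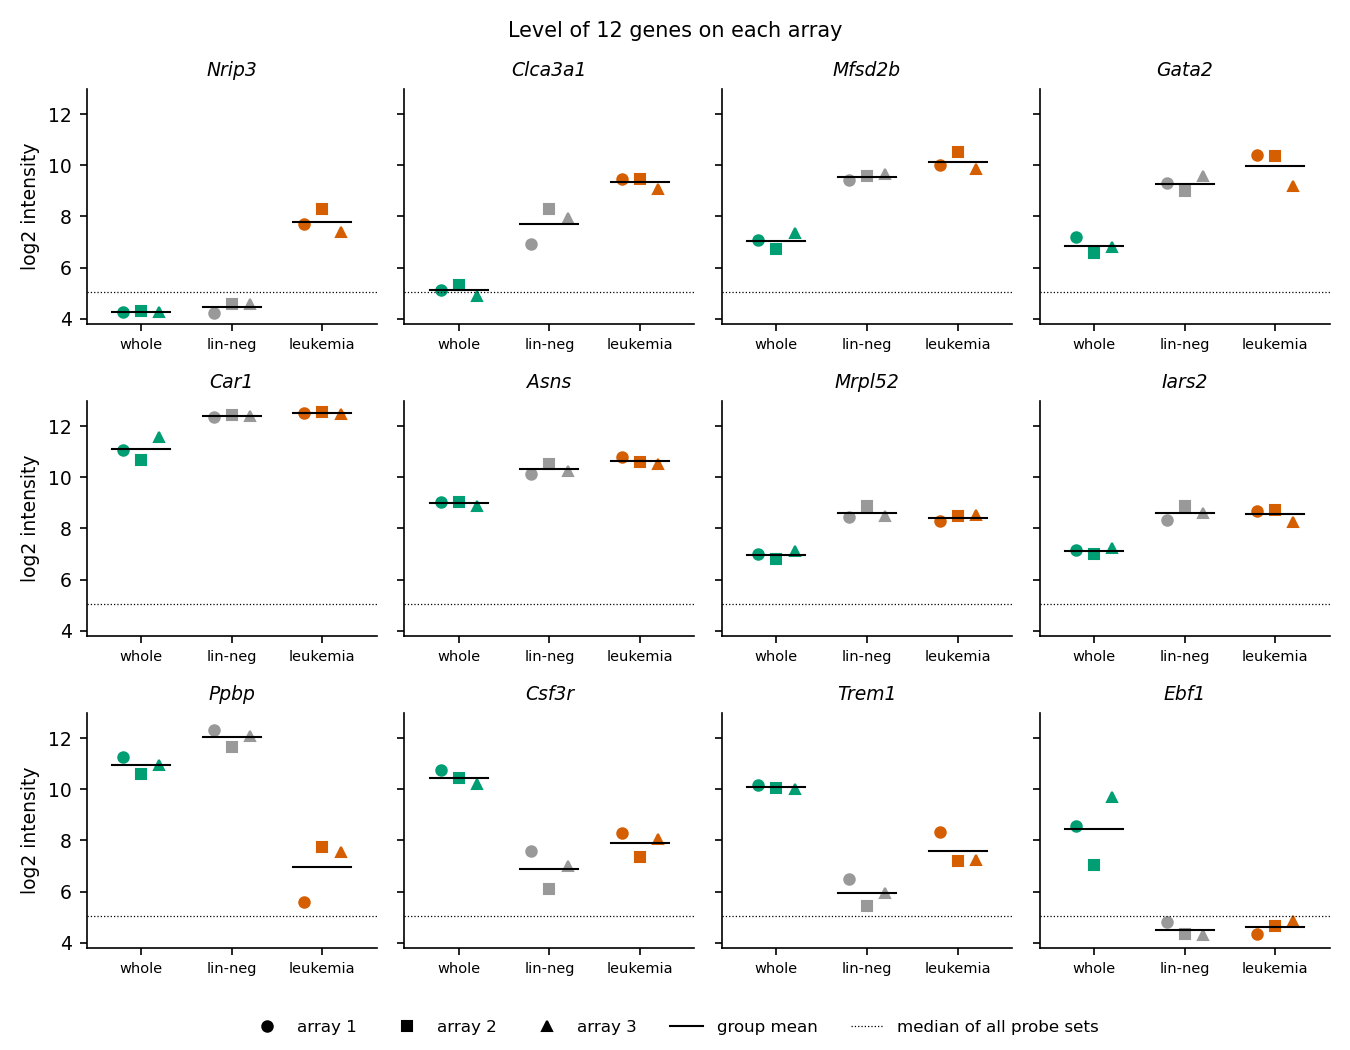
Log2 intensity of 12 genes (vertical) on each array of whole marrow (green), lineage-negative marrow (grey) and leukemia (orange); marker shape gives the array, bars give the mean of 3 arrays and the dotted line gives the median of all probe sets, 5.06. In every panel the 3 leukemias and the 3 whole marrow arrays do not overlap, which the rule for named genes required of Nrip3, Clca3a1, Mfsd2b, Gata2, Ppbp and Ebf1. The lineage-negative arrays lie near the leukemias in Mrpl52 and Iars2 and near whole marrow in Nrip3.

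GATA factors and the proteins that work with them rose as a group. Gata1 and Gata2 are zinc finger factors, Zfpm1 (FOG1) is the cofactor that GATA factors bind, and Tal1, Lmo2 and Ldb1 form the complex that bridges GATA sites to E-box sites. Of 23 measured genes of this list 15 rose and 1, Klf13, fell (65.2% and 4.35%, beside 14.6% and 9.93% of all genes). The median difference was 0.73, against -0.02 over all genes. Klf13 was lost without any 1 of whole marrow arrays 1 to 3, lineage-negative array 2 or 3, or leukemia 2 or 3 (-0.31 to -0.51). Gata2 read 7.20, 6.56 and 6.81 in whole marrow and 10.39, 10.35 and 9.21 in the leukemias, with leukemia 3 the lowest (3.13 ± 0.32, limma adjusted p = 0.000696). Gata1 read 6.51, 5.52 and 6.67 in whole marrow and 7.59, 9.42 and 8.69 in the leukemias, where leukemia 1 was the lowest (2.34 ± 0.45, adjusted p = 0.00655). The leukemia that was lowest in the one was thus not the lowest in the other. Zfpm1 (1.73), Sox6 (1.71, a repressor of embryonic globin), Tal1 (1.60), Klf1 (1.51, the activator of adult beta globin), Gfi1b (1.36) and Lmo2 (1.16) also rose, each with groups that did not overlap. Nfe2, the p45 factor of megakaryocytes, did not pass at 0.43 ± 0.16 (adjusted p = 0.0846), nor did Myb, the progenitor factor, at -0.23 ± 0.14 (adjusted p = 0.295).

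Genes of the red cell membrane and its skeleton rose as well. Of 24 measured members 17 rose and 0 fell (70.8% higher, beside 14.6% of all genes), with a median of 1.53. With the 75th percentile, after cyclic loess or without leukemia 3, 1 fell. Rhag, the Rh-associated glycoprotein, read 8.49, 7.31 and 9.11 in whole marrow and 10.22, 10.67 and 10.50 in the leukemias (2.16 ± 0.39, limma adjusted p = 0.00497). Ermap, the erythroid membrane protein of the Scianna blood group, read 8.63, 7.90 and 9.22 against 10.28, 10.77 and 10.45 (1.92 ± 0.30, adjusted p = 0.00298). Xk, the Kx blood group transporter, stood at 7.52, 7.48 and 7.53 in whole marrow and at 8.46, 9.44 and 8.90 in the leukemias (1.42 ± 0.22, adjusted p = 0.00264). In Rhag and Ermap the whole marrow arrays spread more than the leukemias, with array 2 the lowest, and in Xk the leukemias spread more. Slc4a1, the anion exchanger band 3 that is made in quantity late in maturation, did not pass: its leukemias read 8.68, 10.42 and 10.62 and its whole marrow arrays 9.07, 8.39 and 10.22 (0.68 ± 0.57, adjusted p = 0.467), so the groups overlapped.

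Of 22 measured genes of iron uptake, use, storage and export 8 rose, 2 fell and 12 did not pass. The shares were 36.4% higher and 9.09% lower, beside 14.6% and 9.93% of all genes. The median was 0.24, and 0.37 without leukemia 2 or 0.11 without leukemia 3, while the 10 called members held their call under all 16 alternatives. Tfr2, the second transferrin receptor, rose from 5.45, 4.83 and 5.40 to 7.0, 6.91 and 6.55 (1.59 ± 0.20, limma adjusted p = 0.00131). Slc11a2, which moves iron out of endosomes, rose by 1.58 and Steap3, which reduces it there, by 1.07. Aco1, the iron-sensing RNA-binding protein IRP1, rose by 1.77, and the mitochondrial genes Abcb6, Glrx5, Slc25a38 and Nfs1 rose by 1.60, 1.20, 0.82 and 0.76. Slc40a1 (ferroportin, the iron exporter) fell from 9.74, 9.43 and 9.10 to 8.43, 8.53 and 7.92 (-1.13 ± 0.20, adjusted p = 0.00462), and Ncoa4, which delivers ferritin for breakdown, fell by 0.79. After cyclic loess 4 members fell. Tfrc, the main transferrin receptor, did not pass (0.93 ± 0.34, adjusted p = 0.0831), and its groups overlapped.

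Of 16 carbonic anhydrases, which turn carbon dioxide into bicarbonate, 4 rose and 0 fell (25.0% higher, beside 14.6% of all genes). The list median of 0.02 turned negative with the 75th percentile or without whole marrow array 2. Car1, the main red cell form, read 11.07, 10.67 and 11.57 in whole marrow and 12.50, 12.57 and 12.49 in the leukemias (1.41 ± 0.19, limma adjusted p = 0.00151). Car2 rose by 1.29, Car13 by 2.40 and Car8 by 2.07. The 3 leukemias were within 0.08 of each other in Car1, near the top of the measured range. Among 9 measured globin list members only Hbq1b, a theta globin, rose (11.1%, beside 14.6% of all genes). Its level went from 5.02, 5.19 and 5.92 to 7.41, 8.20 and 7.73 (2.40 ± 0.28, adjusted p = 0.001), with 5.0, 5.55 and 5.44 in lineage-negative marrow. Without leukemia 1, 2 members of the list rose. The embryonic gene Hbb-bh1 lay below the median intensity on all 6 arrays (4.25 to 4.63), and the main adult globins had no probe set of their own here.

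The machinery that makes proteins rose broadly and by small amounts. Aminoacyl-tRNA synthetases, which load amino acids onto tRNAs, rose in 31 of 37 measured genes and fell in 0 (83.8% higher, beside 14.6% of all genes). The median was 0.78, and 29 of the rises held under all 16 alternatives. The largest was that of Iars2, from 7.14, 7.01 and 7.22 in whole marrow to 8.69, 8.74 and 8.27 in the leukemias (1.44 ± 0.16, limma adjusted p = 0.000884). Cytosolic synthetases rose beside the mitochondrial ones, with Hars at 1.42, Tars at 1.33, Eprs at 1.10 and Kars at 1.02, and so did Aimp2, a scaffold of the multi-synthetase complex, at 1.30. Of 40 initiation and elongation factors 31 rose and 1, Eif4g3, fell (77.5% and 2.5%, median 0.51). The subunits of the exchange factor eIF2B were among the risers (Eif2b3 at 1.13, Eif2b1 at 0.93, Eif2b4 at 0.85, Eif2b5 at 0.58). Eif4g3 was lost without any 1 of whole marrow arrays 1 to 3 or leukemia 2 or 3 (-0.35 to -0.49), and 2 members fell without leukemia 1 or with the 75th percentile and 3 after cyclic loess.

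Mitochondrial ribosomal proteins rose in 45 of 76 genes, and 1, Mrpl33, fell (59.2% and 1.32%, beside 14.6% and 9.93% of all genes, median 0.53). Mrpl52 read 6.99, 6.81 and 7.10 in whole marrow and 8.28, 8.47 and 8.51 in the leukemias (1.45 ± 0.13, limma adjusted p = 0.000538), with ranges of 0.29 and 0.23 inside the groups. Mrpl33 was lost when any of the lineage-negative arrays, whole marrow array 1 or 2, or leukemia 1 or 2 was left out (-0.44 to -0.71). Genes of mitochondrial protein import and folding rose in 21 of 32 cases (65.6%) with 0 falls (median 0.54). They were led by the matrix protease subunit Clpp (1.15), the inner membrane channel gene Timm17a (1.06) and the outer membrane channel gene Tomm40 (0.99).

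Cytosolic ribosomal proteins and respiratory chain subunits moved less, and their counts followed the scaling. Of 55 cytosolic ribosomal protein genes 20 rose and 0 fell with the deposited values (36.4% higher, beside 14.6% of all genes, median 0.27). But 6 rose with the 75th percentile, 6 rose and 1 fell after cyclic loess (median 0.12), and 13 rose without leukemia 2. Rpl8 held its call throughout (0.61 ± 0.09, limma adjusted p = 0.00204). Of 74 respiratory chain and ATP synthase subunits 23 rose and 1, Ndufb2, fell (31.1% and 1.35%, beside 14.6% and 9.93% of all genes). In 0 of them were both group means below the median intensity, and of the 10699 bright genes 2965 rose. The share of rises was thus close to that of bright genes. The median was 0.29, with 14 rises and a median of 0.13 after cyclic loess. Ndufv1, of complex I, rose by 0.87 ± 0.07 (adjusted p = 0.000482) on arrays that hardly differed within a group, 8.18, 8.17 and 8.25 against 9.05, 9.12 and 9.05. Ndufb2 was lost without whole marrow array 1 or 3, lineage-negative array 2 or 3, or leukemia 1 or 2 (-0.37 to -0.49).

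Protein folding and breakdown genes rose too. Of 41 proteasome genes 23 rose and 0 fell (56.1% higher, beside 14.6% of all genes). The median was 0.45, with 14 rises and a median of 0.27 after cyclic loess. Psmd3, of the regulatory lid, read 6.94, 7.15 and 6.96 in whole marrow and 8.16, 8.45 and 8.12 in the leukemias (1.23 ± 0.12, limma adjusted p = 0.000666), and Psmc5, an ATPase of the base, rose by 1.02. Of 32 chaperone genes 17 rose (53.1%) and 0 fell (median 0.45), with Cct3, of the ring chaperonin that folds actin and tubulin, at 1.15 ± 0.13 (adjusted p = 0.000939). Without whole marrow array 2 or with the 75th percentile 1 of them fell, and after cyclic loess 2, with a median of 0.28.

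**Figure D3:**
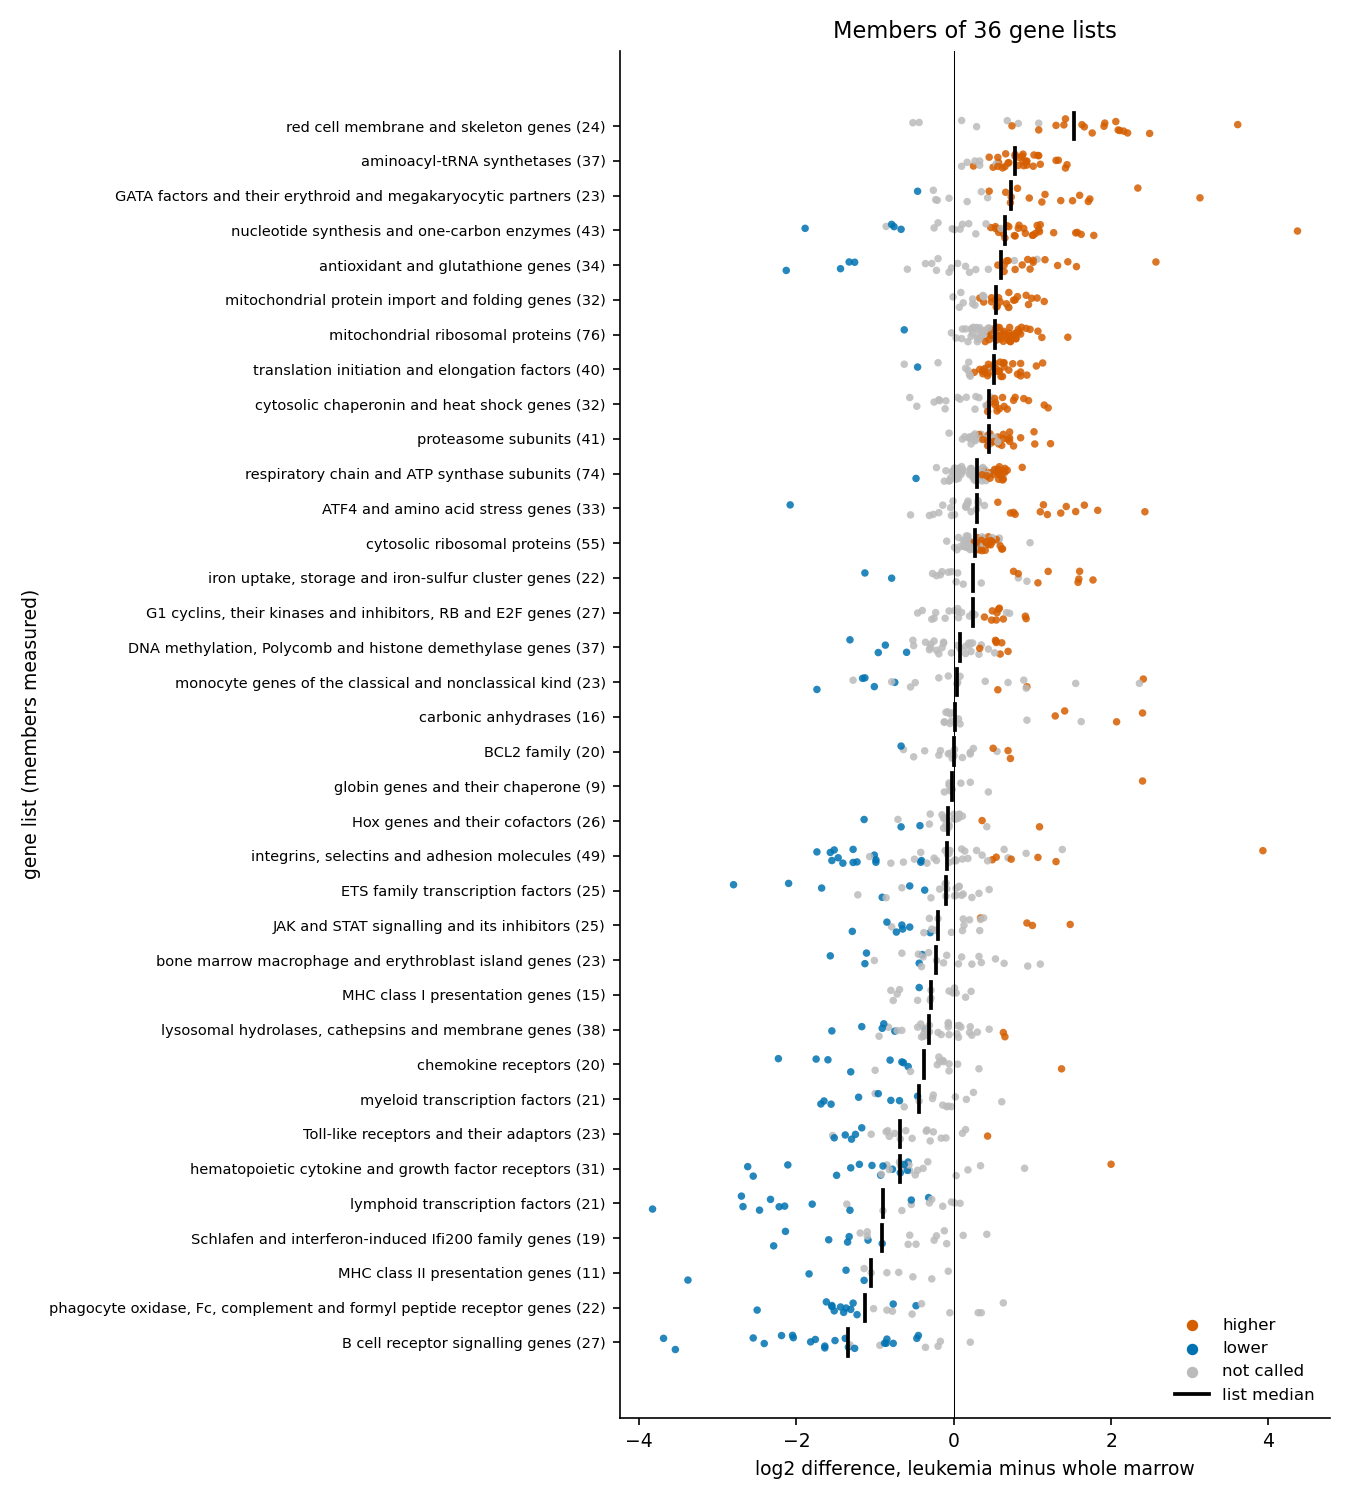
Each point is a measured member of 1 of 36 gene lists, placed by its log2 difference, leukemia minus whole marrow; orange points were called higher, blue points lower, grey points passed no test, and black bars are list medians with the number of measured members in brackets. Lists of the red cell membrane, tRNA synthetases and GATA factors lie at the top, with medians of 1.53, 0.78 and 0.73, and B cell receptor signalling lies at the bottom with -1.34; the medians of the BCL2, globin, carbonic anhydrase, chromatin and monocyte lists lie near 0 and turn sign under some scaling or left-out array.

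The promoters of these groups differed in the ETS word. RefSeq windows were at hand for 15563 of the genes tested, 19116 windows in all, and both strands were searched. An ETS word and its reverse complement can overlap, and a window counts once. The word stood in 19.5% of all windows, in 33% of those of genes that rose and in 18.1% of those of genes that fell. Among genes with the mean of either group above the median intensity, the word was counted again: 33.2% for genes that rose, 28.2% for genes not called and 18.6% for genes that fell, at a mean GC content of 60.6%, 60.4% and 59.4%. By list, it stood in 58.3% of the proteasome windows, 56.2% of those of mitochondrial ribosomal proteins, 46.7% of those of tRNA synthetases and 46.2% of those of translation factors. It was in 12.1% of the windows of the GATA list and 11.1% of those of the red cell membrane list, which also rose. Nucleotide enzymes and antioxidant genes, whose rises are given below, held it in 23.4% and 15.8% of their windows. Cytosolic ribosomal proteins, whose rises depended on scaling, held it in 47.1%. It was in 7.41% of the windows of B cell receptor signalling and 6.67% of those of cytokine receptors. The word thus did not follow the rise of a list. The GATA word stood in 9.24% of all windows, 6.97% of those of genes that rose and 6.83% of those of genes that fell. Of the 14 genes with a window that the rule for named genes picked by their rise, 2 (Ces2g and Gp5) held a GATA word and 0 an ETS word. Of the 14 with a window that it picked by their fall, 4 held a GATA word and 1 (Bach2) an ETS word.

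**Figure D4:**
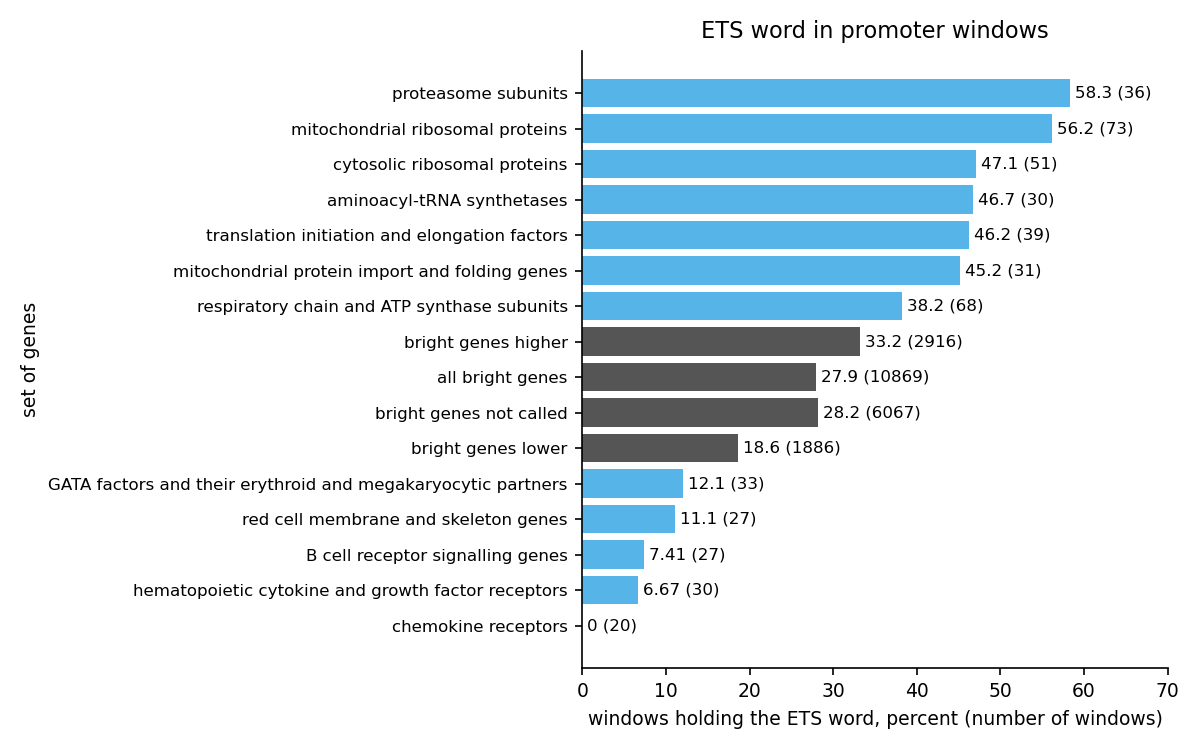
Bars give the percent of RefSeq promoter windows (300 bases) that hold the ETS word, with the number of windows in brackets; grey bars are sets of genes with a group mean above the median intensity and blue bars are gene lists. Bright genes that rose stand at 33.2% and bright genes that fell at 18.6%, and the lists of proteasome and mitochondrial ribosome genes are the longest bars at 58.3% and 56.2%. Not every list is drawn, and the nucleotide and antioxidant lists, at 23.4% and 15.8%, are left out.

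Enzymes that build nucleotides and supply them with one-carbon units rose in 28 of 43 measured genes, and 4 fell (median 0.65). The shares were 65.1% and 9.3%, beside 14.6% and 9.93% of all genes. Shmt2, the mitochondrial enzyme that takes a one-carbon unit from serine, read 7.34, 7.44 and 7.18 in whole marrow and 8.92, 8.82 and 8.88 in the leukemias (1.55 ± 0.12, limma adjusted p = 0.000422). The leukemias lay within 0.10 of each other. Prps1, which makes the ribose phosphate donor of both purines and pyrimidines, rose by 1.78 and Mthfd1, of the cytosolic folate cycle, by 1.62. The pyrimidine enzymes Cad and Ctps rose by 1.57 and 1.27, and the purine enzymes Ppat, Gart, Pfas and Adsl by 1.00, 0.83, 0.89 and 0.91. The largest rise of the list was that of Cda, given above. Of the genes that fell, Nt5e, the surface enzyme CD73 that makes adenosine, was at least 3.7-fold lower (adjusted p = 0.000463), and Samhd1, which destroys deoxynucleotides, changed by -0.79. Without whole marrow array 1, 2 members fell.

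ATF4 is a factor that answers a shortage of amino acids. Of 33 measured genes of ATF4 and amino acid stress, 13 rose and 1 fell (39.4% and 3.03%, beside 14.6% and 9.93% of all genes). The median was 0.29, and 0.16 without leukemia 3. Ddit4, an inhibitor of mTORC1, read 5.42, 5.29 and 5.27 in whole marrow, 5.98, 5.48 and 5.82 in lineage-negative marrow and 7.69, 7.93 and 7.66 in the leukemias (2.43 ± 0.13 against whole marrow, limma adjusted p = 0.000197). Each leukemia stood over 1 log2 unit above all 6 wild type arrays. Asns, which makes asparagine, rose from 9.05, 9.04 and 8.86 to 10.80, 10.59 and 10.53 (1.66 ± 0.12, adjusted p = 0.000398), and Slc7a5, an importer of large neutral amino acids, rose by 1.83. Slc7a11, the cystine importer, went the other way, from 7.08, 6.49 and 6.32 to 4.97, 4.24 and 4.43 (at least 4.24-fold lower, adjusted p = 0.000881). Without leukemia 1, 2 members of the list fell. Atf4 and Ddit3 did not pass.

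Antioxidant genes rose in 16 of 34 cases and fell in 4 (median 0.60). The shares were 47.1% and 11.8%, beside 14.6% and 9.93% of all genes. Nqo1, a quinone reductase, read 4.80, 4.66 and 4.68 in whole marrow and 7.09, 7.78 and 6.97 in the leukemias (at least 5.93-fold, limma adjusted p = 0.000959). Gclm, of the enzyme that starts glutathione synthesis, rose by 1.45, Srxn1, which repairs peroxiredoxins, by 1.01, and Prdx3, the mitochondrial peroxiredoxin, by 1.56. The 4 that fell were Gsr (-1.26), Mgst1 (-1.33), Glrx (-1.44) and Mgst2 (-2.13). Mgst2 read 9.26, 8.91 and 8.61 in whole marrow against 7.38, 6.45 and 6.56 in the leukemias.

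Of the genes that fell most with a mean above the median intensity in both groups, Ppbp, a chemokine stored in platelet granules, came first. It read 11.26, 10.60 and 10.97 in whole marrow, 12.34, 11.67 and 12.10 in lineage-negative marrow and 5.58, 7.74 and 7.55 in the leukemias (-3.99 ± 0.51 against whole marrow, limma adjusted p = 0.00138). All 3 leukemias lay far below both wild type groups. Pf4, the other platelet chemokine among the markers, did not pass, with leukemias at 7.37, 10.08 and 9.12 around whole marrow at 8.50, 8.20 and 8.35. Clec4d, a C-type lectin of neutrophils and monocytes, fell from 9.61, 9.08 and 9.23 to 6.74, 6.24 and 5.52 (-3.14 ± 0.29, adjusted p = 0.000538), and Arg2, the mitochondrial arginase, from 9.01, 9.07 and 8.67 to 6.66, 5.29 and 5.72 (-3.03 ± 0.30, adjusted p = 0.000644). Il1f9, which encodes IL-36 gamma, was 8.97-fold lower, Tnfsf13b, the B cell survival factor BAFF, 6.54-fold lower and Ms4a1, the B cell antigen CD20, 6.63-fold lower. The rest that the rule picked were Mirt2, Ankrd22, Spib, Ipcef1 and Mctp2, with folds from 6.63 to 11.3, and H2-Ea, described with the MHC genes.

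Genes with which neutrophils and other phagocytes sense and kill fell in 13 of 22 measured cases and rose in 0. The share lower was 59.1%, beside 9.93% of all genes, and the median was -1.13. Trem1, which amplifies inflammatory signals, read 10.16, 10.06 and 10.03 in whole marrow and 8.34, 7.18 and 7.24 in the leukemias (-2.50 ± 0.33, limma adjusted p = 0.0016). Itgam, the CD11b chain of complement receptor 3, changed by -1.52, Ncf1, the p47 subunit of the phagocyte oxidase, by -1.55, and Fcgr3, a low-affinity Fc receptor, by -1.37. Cybb, the membrane core of the oxidase, did not pass at -0.85 ± 0.40 (adjusted p = 0.173). Leukemia 2 was the lowest of the 3 in Itgam (8.73 against 9.75 and 9.63) and Ncf1 (8.25 against 9.23 and 9.19). The count was 8 without whole marrow array 1 or 2, and 2 members rose without leukemia 2. The granule markers Elane (-0.85 ± 0.27, adjusted p = 0.0475) and Ltf (-1.30 ± 0.39, adjusted p = 0.0413) fell too, but either call was lost without any 1 of whole marrow arrays 1 to 3, lineage-negative array 3 or leukemia 2, Elane's also without lineage-negative array 1 or leukemia 1, and Ltf's without leukemia 3 (values from -0.56 to -0.97 for Elane and from -0.93 to -1.45 for Ltf). Mpo (-0.67, adjusted p = 0.0572) and Ngp (-0.67, adjusted p = 0.337) did not pass, and Ltf and Ngp stood 4.99 and 3.61 above lineage-negative marrow.

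Receptors for blood cell growth factors fell in 14 of 31 cases, and 1 rose (45.2% and 3.23%, beside 9.93% and 14.6% of all genes, median -0.68). The riser was Epor, the erythropoietin receptor, from 6.53, 5.53 and 6.75 to 7.57, 8.81 and 8.42 (2.00 ± 0.37, limma adjusted p = 0.0058). Csf3r, the receptor of granulocyte colony-stimulating factor, read 10.75, 10.43 and 10.19 in whole marrow and 8.28, 7.37 and 8.06 in the leukemias. Bmpr1a, a receptor of bone morphogenetic proteins, was at least 6.15-fold lower (adjusted p = 0.000538) and Il18r1 at least 2.82-fold lower (adjusted p = 0.00319). The count of falls was 3 without whole marrow array 1 and 8 without whole marrow array 2 or leukemia 2, and 2 members rose without leukemia 2. Kit, the stem cell factor receptor, read 7.32, 7.24 and 7.18 in the leukemias and 7.66, 7.39 and 7.68 in whole marrow and did not pass (-0.33 ± 0.12, adjusted p = 0.0694), while it stood 2.11 below lineage-negative marrow (adjusted p = 0.000133).

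Of 20 chemokine receptors 8 fell and 1, Ackr1, rose (40.0% and 5.0%, beside 9.93% and 14.6% of all genes). The median was -0.38, and -0.58 without whole marrow array 2. Cxcr2, by which neutrophils leave the marrow, read 11.17, 10.81 and 10.57 in whole marrow and 8.94, 8.19 and 8.72 in the leukemias (-2.23 ± 0.33, limma adjusted p = 0.00239), and Cxcr3, of activated T cells, changed by -0.81. The count of falls was 2 without whole marrow array 1 (and Ackr1 was lost, at 1.27), 3 without whole marrow array 3, 5 without leukemia 1, 4 without leukemia 2 or 3, and 5 with only the 6 arrays. Of 23 Toll-like receptors and adaptors 5 fell and 1 rose (21.7% and 4.35%, beside 9.93% and 14.6% of all genes). Only 2 had both group means below the median intensity, and of the 10699 bright genes 1965 fell. The share of falls was thus close to that of bright genes. The median was -0.68, and -0.26 without leukemia 2, and 3 fell without whole marrow array 1 or 2. Tlr2, which senses bacterial lipoproteins, changed by -1.30 ± 0.26 (adjusted p = 0.00812), the adaptor Tirap by -1.52 and the kinase Irak2 by -1.25. With the 75th percentile 8 members fell and 0 rose, and 0 rose after cyclic loess.

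Transcription factors of the granulocyte and monocyte lines fell in 8 of 21 cases and rose in 0 (38.1% lower, beside 9.93% of all genes). The median was -0.44, and -0.28 without whole marrow array 1 or -0.09 without leukemia 2. Cebpe, which drives the late granules of neutrophils, read 9.17, 8.96 and 8.64 in whole marrow and 7.59, 6.42 and 7.81 in the leukemias (-1.65 ± 0.36, limma adjusted p = 0.0112). Bcl6 changed by -1.69, Cebpd by -1.56 and Rara, the retinoic acid receptor, by -0.96. The factors of earlier myeloid progenitors did not pass: Cebpa was at 0.25 ± 0.38 (adjusted p = 0.718), with leukemias at 6.58, 6.22 and 7.26 around whole marrow at 6.85, 6.21 and 6.25, and Irf8, of monocyte progenitors, at -1.0 ± 0.34 (adjusted p = 0.0622). Without leukemia 3, 1 member rose.

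Genes of lymphocytes fell. Of 21 lymphoid transcription factors 11 fell and 0 rose (52.4% lower, beside 9.93% of all genes). The median was -0.90, and -0.60 without whole marrow array 3. Ebf1 and Pax5, which set B cell fate, read 8.56, 7.05 and 9.70 and 7.53, 6.39 and 8.54 in whole marrow. In the leukemias Ebf1 read 4.35, 4.65 and 4.83 and Pax5 4.66, 4.79 and 4.92, all below the median intensity (at least 14.2-fold and 6.49-fold lower, limma adjusted p = 0.00194 and 0.003). Bach2 was at least 6.41-fold lower, and Ikzf3, Pou2af1 and Satb1, the chromatin organiser of lymphocytes, changed by -2.47, -2.22 and -2.15. Lef1, of T and B cell precursors, was at least 3.49-fold lower (adjusted p = 0.00144). In Ebf1, Pax5 and Bach2 whole marrow array 2 was the lowest and array 3 the highest, and each leukemia lay below array 2.

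Of 27 genes of B cell receptor signalling 21 fell and 0 rose (77.8% lower, beside 9.93% of all genes, median -1.34). Igll1, of the surrogate light chain of the pre-B cell receptor, and Vpreb3 were at least 12.9-fold and 11.7-fold lower. Rag1, the recombinase, was at least 5.31-fold lower and the adaptor Blnk 5.88-fold lower. Cd79b, a signalling chain of the receptor, read 9.82, 8.72 and 10.35 in whole marrow and 7.41, 6.99 and 7.91 in the leukemias (-2.19 ± 0.41, limma adjusted p = 0.00572). Its partner Cd79a changed by -2.05 ± 0.48 (adjusted p = 0.015), a call that was lost without whole marrow array 1 (-1.88). T cell marker Cd3e read 6.83, 7.05 and 7.19 in whole marrow and 5.69, 5.25 and 6.12 in the leukemias (-1.34 ± 0.24, adjusted p = 0.00458).

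MHC class II genes fell in 4 of 11 cases (36.4%, beside 9.93% of all genes). The median was -1.05, and -0.65 without whole marrow array 1 or -0.64 without leukemia 2. The count was 2 with only the 6 arrays and without lineage-negative array 3 or leukemia 1 or 3, and 1 without whole marrow array 1 or 3. Ciita, the master switch of these genes, held its call: it read 5.67, 4.95 and 6.13 in whole marrow and 4.53, 4.42 and 4.37 in the leukemias (at least 2.21-fold lower, limma adjusted p = 0.0105). H2-Ea is set apart. Mice of the C57BL/6 strain are known to carry a deletion in this gene and to make no E alpha chain, yet its probe set read 9.12, 8.25 and 10.20 in whole marrow, 6.47, 5.18 and 5.18 in lineage-negative marrow and 4.55, 8.23 and 4.64 in the leukemias. Leukemia 2 thus stood at the level of whole marrow array 2, and the other pair lay below the median intensity. What this means for the strain of the mice was not tested. The call (-3.38 ± 0.96, adjusted p = 0.0328) was lost with only the 6 arrays (-3.38). It was also lost on leaving out whole marrow array 1 (-3.41) or 3 (-2.87), leukemia 1 (-2.75) or 3 (-2.80), or lineage-negative array 3 (-3.38).

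Among the 25 measured ETS factors, the family of ERG, 0 rose and 6 fell (24.0% lower, beside 9.93% of all genes, median -0.10). Fli1, the closest relative of ERG, read 9.43, 9.39 and 9.38 in whole marrow and 8.20, 6.73 and 8.22 in the leukemias (-1.68 ± 0.37, limma adjusted p = 0.0114). The 3 whole marrow arrays lay within 0.05 of each other, and leukemia 2 was well below the other leukemias. Ets1, of lymphocytes, fell from 8.20, 7.63 and 8.39 to 6.13, 5.51 and 6.30 (-2.10 ± 0.30, adjusted p = 0.00202), and Spib, of B cells and plasmacytoid dendritic cells, from 8.72, 7.22 and 9.83 to 5.60, 5.54 and 6.22. Gabpa, whose product binds many promoters of housekeeping genes, did not pass, with 8.01, 7.81 and 7.99 against 8.09, 7.98 and 8.08. The count of falls was 10 with the 75th percentile, and 1 member rose without lineage-negative array 2 or with only the 6 arrays.

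The list of Hox genes and cofactors had 7.69% of its members called higher and 11.5% lower, beside 14.6% and 9.93% of all genes. In 16 of its members both group means lay below the median intensity. Of 26 measured Hox genes and cofactors, 2 rose and 3 fell (median -0.07, and -0.05 without whole marrow array 3 or -0.03 without leukemia 2), and the largest changes were in cofactors and related homeobox genes: Pbx3 at 1.09 ± 0.17 (limma adjusted p = 0.00251) and Hlx at -1.14 ± 0.16 (adjusted p = 0.00192). The second riser, Pbx4, was lost when any array but whole marrow array 2 or leukemia 2 was left out. Hoxa9, active in many myeloid leukemias, lay below the median intensity on all 6 arrays, at 4.52 to 5.04. Meis1 did not pass against whole marrow (-0.71 ± 0.24, adjusted p = 0.0638) and stood 2.61 below lineage-negative marrow (adjusted p = 0.001).

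Signalling by JAK and STAT showed 4 rises and 7 falls among 25 genes (median -0.20, and -0.06 without whole marrow array 3 or -0.12 without leukemia 2), beside 14.6% and 9.93% of all genes. Stat5a, the STAT that erythropoietin and other cytokines activate, read 6.85, 6.83 and 6.86 in whole marrow and 8.19, 7.84 and 7.51 in the leukemias (1.00 ± 0.15, limma adjusted p = 0.00252), and its target Cish rose at least 2.79-fold (adjusted p = 0.0106). Stat2 and Stat6, of interferon and interleukin 4 signalling, changed by -0.66 and -0.73. The rises numbered 2 without whole marrow array 3 or leukemia 3, after cyclic loess or with only the 6 arrays. The falls numbered 3 without whole marrow array 1 and 4 with only the 6 arrays or when whole marrow array 3 or leukemia 3 was left out.

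In the BCL2 family 3 of 20 genes rose and 1 fell (15.0% and 5.0%, near or below the 14.6% and 9.93% of all genes). Mcl1, which protects neutrophils and progenitors from death, read 9.95, 9.81 and 9.85 in whole marrow and 9.33, 9.13 and 9.16 in the leukemias (-0.67 ± 0.11, limma adjusted p = 0.00416). The risers were Bbc3, the p53 target PUMA (at least 1.61-fold), Bnip3 (0.50) and Bcl2l13 (0.72). Bcl2 and Bcl2l1 (BCL-XL) did not pass, and Bcl2l1 read 5.81, 7.24 and 6.89 in the leukemias against 6.40, 6.36 and 6.42. With whole marrow array 1 or 2 left out, or under either rescaling, 2 members fell. Of 27 G1 phase genes 10 rose and 0 fell (37.0% higher, beside 14.6% of all genes), with Cdk4 at 0.49 ± 0.09 (adjusted p = 0.00507) and E2f1 at 0.63 ± 0.12 (adjusted p = 0.0056). The median was 0.24, and 0.38 without whole marrow array 3 or 0.11 without leukemia 2. Those rises numbered 3 after cyclic loess (with 2 falls) or without whole marrow array 1, 4 without whole marrow array 2 (with 1 fall), and 6 with only the 6 arrays, and 1 member fell without leukemia 3.

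Schlafen and Ifi200 genes, which interferon induces, fell in 7 of 19 cases and rose in 0 (36.8% lower, beside 9.93% of all genes). The median was -0.91, and -0.51 without leukemia 2, with 4 falls without whole marrow array 1. Slfn1 read 10.36, 10.61 and 9.89 in whole marrow and 8.57, 7.63 and 8.25 in the leukemias (-2.14 ± 0.27, limma adjusted p = 0.0013), and Slfn4 changed by -2.29. Both stood above lineage-negative marrow, by 3.38 and 3.93. Among 49 adhesion genes 6 rose and 14 fell (12.2% and 28.6%, beside 14.6% and 9.93% of all genes). The median was -0.08, with 8 falls without whole marrow array 1 and 3 rises after cyclic loess. Itgb7, which pairs with integrin alpha 4, rose by 1.07 ± 0.17 (adjusted p = 0.00267). Cd44, the hyaluronan receptor, changed by -1.28, Vcam1, a ligand on marrow macrophages and stroma, by -1.57, Itgb3, the platelet integrin beta chain, by -1.47 and the tetraspanin Cd9 by -1.74. Of 37 chromatin genes 7 rose and 4 fell (18.9% and 10.8%, near the 14.6% and 9.93% of all genes). Among them were Dnmt1, the maintenance DNA methyltransferase (0.54 ± 0.10, adjusted p = 0.00488), and Kdm6b, a histone demethylase (-1.32 ± 0.19, adjusted p = 0.00193). The chromatin counts ran from 4 rises (without whole marrow array 2 or leukemia 2) to 10 (without leukemia 3) and from 1 fall (without whole marrow array 1 or 3) to 6 (without whole marrow array 2) when 1 array was left out, with 2 falls without leukemia 3. There were 7 falls with the 75th percentile, and 4 rises and 9 falls after cyclic loess. Of 38 lysosomal genes 2 rose and 6 fell (5.26% and 15.8%, beside 14.6% and 9.93% of all genes). Only 2 of the 38 had both group means below the median intensity, and of the 10699 bright genes 1965 fell. The lysosomal falls thus do not stand out from those of bright genes. There was 1 fall without whole marrow array 1, 3 without whole marrow array 2 or leukemia 2, and 1 rise without whole marrow array 1, any lineage-negative array or leukemia 2 or 3. Falls numbered 10 with the 75th percentile, 9 after cyclic loess and 2 with only the 6 arrays, with 1 rise each. Of 15 MHC class I genes 1 fell (6.67%, beside 9.93% of all genes), a call that was lost without any 1 array but whole marrow array 2 and leukemia 3. Without leukemia 3, 4 of them fell, and without whole marrow array 2, 1 rose. The falls numbered 5 with the 75th percentile or after cyclic loess, 4 among bright genes only, 2 with an intensity trend and 0 with only the 6 arrays.

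The median standard deviation of a gene was the same in the leukemias and in whole marrow, 0.127 log2 units, but wide ranges were more frequent in the leukemias. The range over 3 arrays passed 1 log2 unit in 1105 genes in the leukemias and in 517 in whole marrow, and 2 units in 138 and 64. Leukemia 2 stood apart most often, with 369 genes over 1 unit below both other leukemias and 69 above, against 42 and 89 for leukemia 1 and 15 and 26 for leukemia 3. The rule for named genes took the 8 widest leukemia ranges among genes with a range under 1 unit in whole marrow. Cd300e, a receptor of nonclassical monocytes, read 8.60, 4.66 and 9.11 in leukemias 1, 2 and 3, against 4.96, 5.22 and 5.10 in whole marrow. Fcgr4, an Fc receptor, read 10.13, 6.28 and 10.53 against 8.60, 8.73 and 7.73 in whole marrow, and Adgre4, an adhesion receptor of macrophages, 8.41, 5.10 and 9.06 against 6.59, 6.40 and 6.82. In these 3 genes leukemias 1 and 3 lay above every whole marrow array and leukemia 2 below every one, so none passed as a group difference. Leukemia 2 was also the lowest leukemia in Pltp (5.38 against 8.66 and 9.45), Fcrl5 (4.2 against 7.85 and 8.78) and Adamdec1 (4.79 against 7.50 and 9.19).

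**Figure D5:**
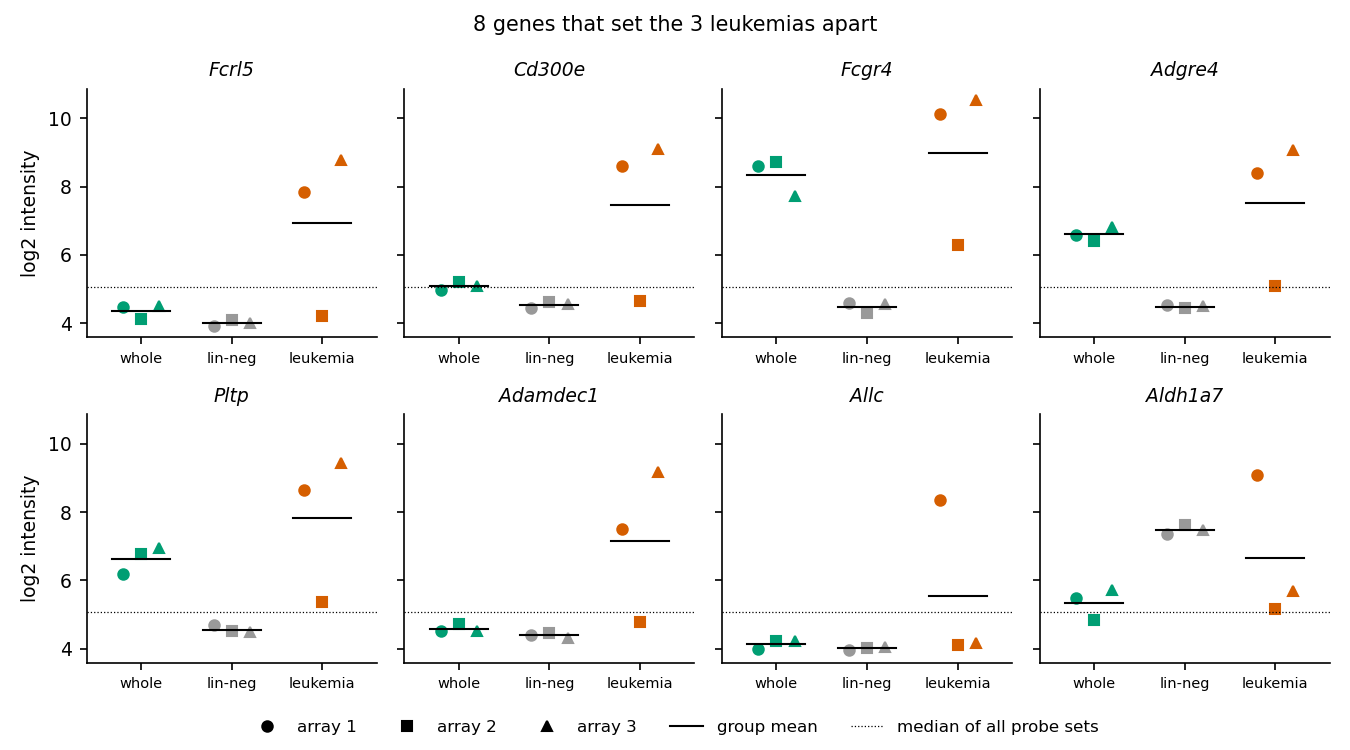
Log2 intensity (vertical) of the 8 genes with the widest range over the leukemias among genes that vary by under 1 unit in whole marrow, on each array of whole marrow (green), lineage-negative marrow (grey) and leukemia (orange), with group means as bars and the median of all probe sets as a dotted line. Leukemia 2 (square) is low in 6 of the genes and leukemia 1 (circle) alone is high in Allc and Aldh1a7.

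Allc, an allantoicase gene, read 8.37 in leukemia 1 and 4.1 and 4.18 in leukemias 2 and 3, where whole marrow read 3.98, 4.21 and 4.21. Aldh1a7, an aldehyde dehydrogenase, read 9.08 in leukemia 1, 5.16 and 5.70 in the others and 5.48, 4.85 and 5.71 in whole marrow. The platelet chemokine Ppbp was lowest in leukemia 1, as given above. These single-leukemia levels have no replicate check. In the monocyte list 3 genes rose and 5 fell of 23 (median 0.04, from -0.26 without leukemia 3 to 0.34 without leukemia 2), and 7 rose and 3 fell without leukemia 2, while 2 fell without whole marrow array 1 and 3 fell when whole marrow array 2 or lineage-negative array 3 was left out. Of its members Cd36, the fatty acid and thrombospondin receptor that red cell precursors also carry, rose from 6.0, 4.94 and 6.78 to 8.64, 8.48 and 7.82 (2.41 ± 0.42, limma adjusted p = 0.0044). In the list of marrow macrophages that surround red cell precursors 0 of 23 rose and 5 fell (21.7% lower, beside 9.93% of all genes). The median was -0.22, and -0.33 without leukemia 1, and 6 rose without leukemia 2, with the median then at 0.01. Vcam1, Slc40a1 and Mrc1, the mannose receptor (-1.11), were among those that fell.

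Values against lineage-negative marrow come from the same leukemia arrays as the comparison above. The genes given here are examples of risers that did and did not pass there, and their number says nothing of how common each kind was. Mrpl52 stood at -0.18 (limma adjusted p = 0.527), Iars2 at -0.03 (0.944), Shmt2 at 0.07 (0.835), Car1 at 0.10 (0.837), Rhag at 0.18 (0.865) and Zfpm1 at -0.05 (0.958). An adjusted p of that size does not show that the levels were equal. Others stood above both references, with Nrip3 at 3.33 over lineage-negative marrow (adjusted p = 0.000223), Ddit4 at 2.00 (adjusted p = 0.00037), Hbq1b at 2.45 (adjusted p = 0.00197), Cd36 at 2.68 (adjusted p = 0.0077) and Clca3a1 at 1.62 (adjusted p = 0.0168). Of the genes that fell, Ppbp stood at -5.08 (adjusted p = 0.00127), Itgb3 at -2.80 (adjusted p = 0.00159) and the platelet glycoprotein gene Gp9, -1.07 against whole marrow, at -3.28 (adjusted p = 0.00037). Itgam and Cxcr2 lay between the references, 3.32 and 2.19 above lineage-negative marrow (adjusted p = 0.00125 and 0.00701).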

How the data were processed

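Values were taken from the deposited table of Affymetrix array intensities, made by RMA in Partek per the submitters' processing notes, with versions, settings and genome build not given in the sources used here. The table held linear intensities and was taken to log2. Of 28853 probe sets, 21789 had 1 gene symbol, and 19938 genes were tested. With limma 3.58.1 in R 4.3.3, all 9 arrays were fitted in 3 groups of 3, and leukemia was compared with whole marrow (two-sided, Benjamini-Hochberg over all genes, adjusted p under 0.05). Errors are standard errors with n = 3 arrays a group. The number of arrays limits the precision. The labels number the samples, and p-values measure the spread between these arrays.

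The genes and lists were chosen with earlier results of these data known. The rule for named genes took Erg and the largest called differences among genes whose groups did not overlap. These were the 12 highest and 12 lowest with both group means above the median intensity and the 6 highest and 6 lowest with the lower group's mean below it. The rule also took the 8 widest ranges over the leukemias, the 2 largest changes of each list and other list members by role, mainly those whose call held under all 16 alternatives. Left out of the picks by difference or range were clone names, predicted genes, olfactory and vomeronasal receptors, and immunoglobulin and T cell receptor segments. MicroRNAs and small nucleolar RNAs were left out too. The filter on names also removed other symbols that begin with Tra, Trb, Trg, Trd or Tcr, or with E and a digit. A fold is "at least" where the lower group's mean was under the median intensity. The fit was checked on simulated data. Promoter windows came from RefSeq (GRCm38.p6). Alternatives changed the samples fitted, scaling, variance prior, dim gene filter, an added intensity of 16, the probe set rule and each array in turn.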

Additional observations from a re-analysis of the deposited data

How the results depend on the processing

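Of 2901 rises and 1980 falls, 1603 and 831 passed an adjusted p under 0.01. Leaving out 1 array at a time gave 2350 to 2835 rises, 1248 to 1915 falls (lowest without whole marrow array 1) and 7403 to 9540 genes whose arrays did not overlap, against 7403 (37.1%) with all arrays. With only the 6 arrays there were 2414 rises and 1532 falls, with an intensity trend 2654 and 2041. Of 30 lists at least 1 count moved by over 1.5 times under some alternative, and the cause was not tested. Single genes that did not pass the test turned sign over the left-out arrays: Bcl2l1 ran from -0.04 (without leukemia 2) to 0.67, Pf4 from -0.11 (leukemia 2) to 1.25, Cebpa from -0.04 (leukemia 3) to 0.48, Fcgr4 from -0.14 (leukemia 3) to 1.98, Xist from -0.18 (whole marrow array 2) to 3.21 and Eif2s3y from -2.21 to 0.03 (whole marrow array 2). Gabpa stood at -0.07 after cyclic loess. No paired analysis was possible because the titles of the leukemias carry no replicate numbers shared with the wild type arrays. Dim genes are limited by signal over background: 53.7% of genes were brighter than the median intensity in either group.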

Other observations

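Neighbouring genes were set side by side along the chromosomes. Only placed genes with a mean level above the median intensity over the leukemia and whole marrow arrays were used, 10204 of the genes tested. After centring each array on its median, the median difference from whole marrow was taken in 377 overlapping windows of 50 genes per array. Each leukemia was compared with the whole marrow mean, and each whole marrow array with the mean of the other whole marrow arrays. These medians ran from -0.41 to 0.38 in leukemia 1, from -0.48 to 0.32 in leukemia 2 and from -0.35 to 0.35 in leukemia 3. In whole marrow they ran from -0.11 to 0.13, from -0.20 to 0.16 and from -0.17 to 0.17. Windows beyond 0.4 in either direction numbered 1 in leukemia 1, 5 in leukemia 2 and 0 in leukemia 3 and in each whole marrow array. Because windows overlap, the 5 in leukemia 2 need not be separate regions.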
